A study of Drosophila melanogaster with 8 samples.

Results

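The respiratory chain complex subunits are the nuclear-encoded proteins of complexes I, III and IV and of the ATP synthase, complex V, in the inner membrane of the mitochondrion. Members were all rows of the count table whose FlyBase symbol starts with ND-, UQCR, COX or ATPsyn, and 76 of 12082 rows met that rule. They divide into 59 common subunits (34 of complex I, 6 of complex III, 8 of complex IV and 11 of complex V) and 17 paralogs whose symbol ends in L, or in L and a digit (6, 1, 7 and 3 in the same order). ND-MNLL also ends in L, but its last letters spell the subunit's own name, so it was counted as a common subunit. A further 4 FlyBase symbols of this form, ATPsynepsilonL, COX7CL, UQCR-14L and UQCR-6.4L, were not analysed here.

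The libraries hold polyA RNA of whole Drosophila melanogaster females aged 1 week. The Mutant females had the genotype btl>DHR78; DHR78[1]/[3], and the Control females had the genotype btl>DHR78. Both genotypes therefore carried a transgene that drives DHR78, a nuclear receptor gene now called Hr78, through btl, a gene known for its activity in the tracheal airways, and only the Mutants also carried the pair of Hr78 alleles. The food held 8% yeast and 9% sugar for both, each library pooled RNA of 2 collections of 12 females, and there were 4 libraries per genotype. Whole bodies were extracted, so fewer cells of a type and less RNA per cell cannot be told apart in any value given here.

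The chain passes electrons from NADH and from succinate to oxygen. Complex I takes them from NADH, complex III passes them to cytochrome c, and complex IV hands them to oxygen, while protons are moved across the inner membrane. Complex V uses the return of these protons to make ATP. In complex I a conserved core, shared with bacterial enzymes, holds the flavin, the iron-sulphur clusters and the quinone site, and many small accessory subunits surround it. In flies several subunits have a second gene, named with a final L, and many such paralogs are known for expression in the testis.

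The libraries held 19544675 to 33054191 counts, and members took 1.25% to 1.35% of the counts in Mutant libraries and 1.17% to 1.23% in Control libraries. Hr78 averaged 71.6 ± 1.71 CPM (counts scaled for the depth and composition of the library) in Mutants and 123 ± 4.22 CPM in Controls (SD, n = 4 each), a log2 fold change of -0.79 ± 0.04 (SE) with an adjusted p of 4.90e-06 in edgeR's quasi-likelihood test. A count per gene does not tell transcripts of the transgene from those of the gene itself. Of 10525 genes tested, 8.46% were called higher and 11.1% lower in Mutants at an adjusted p below 0.05. Every Mutant library lay above every Control library in 11.7% of them.

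Mutant replicate 2 stood apart. It had 29 rows without a count, against 572 to 731 in each other library, although all libraries are labelled female. The 29 male germline markers in the table summed to 328 CPM there and to 9.82 to 12.4 CPM in the other Mutants, against 11.0 to 14.2 CPM in Controls, and none of them was at 0 in that library while 6 to 17 were at 0 in each other one. The 18 markers of the male accessory gland and ejaculatory duct summed to 464 CPM there and to 42.0 to 44.8 CPM in the other Mutants, against 39.8 to 44.6 CPM in Controls. Results that rest on this library are given with and without it.

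Most common subunits were among the abundant transcripts of the female body. Per length, in RPKM (CPM per kilobase of exon), their median was 134, against 17.3 over all tested genes, and 47 of 59 lay above the 90th percentile. Complex V had the highest median level, 287 RPKM in Mutants and 279 RPKM in Controls, followed by complex IV with 264 RPKM in Mutants and 246 RPKM in Controls. Complex III had medians of 169 RPKM in Mutants and 165 RPKM in Controls, and complex I had 106 RPKM in Mutants and 98.9 RPKM in Controls.

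Levels differed more between subunits of one complex than between genotypes. ATPsynC, the subunit of the rotating membrane ring that is present in many copies per enzyme, was the highest with 971 ± 43.9 RPKM in Mutants and 955 ± 35.6 RPKM in Controls (SD, n = 4 each). ATPsynbeta, which carries the catalytic sites, followed with 806 ± 22.6 RPKM in Mutants and 792 ± 33.8 RPKM in Controls. COX5A led complex IV at 380 RPKM over all 8 libraries, ND-MLRQ led complex I at 348 RPKM and UQCR-14 led complex III at 333 RPKM, although the whole of UQCR-14's exons overlaps those of CG32576, and reads of the pair cannot be told apart without known strand handling. The lowest common subunit was ND-B8 with 7.18 ± 1.22 RPKM in Mutants and 6.23 ± 0.98 RPKM in Controls, and 15.4% of its exonic bases overlap Gs1l. These figures rest on current exon models, and the longest model among common subunits is that of ATPsyndelta, with 3817 exonic bases and 55.6 RPKM, of which 35.6% overlap CG2962.

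**Figure D1:**
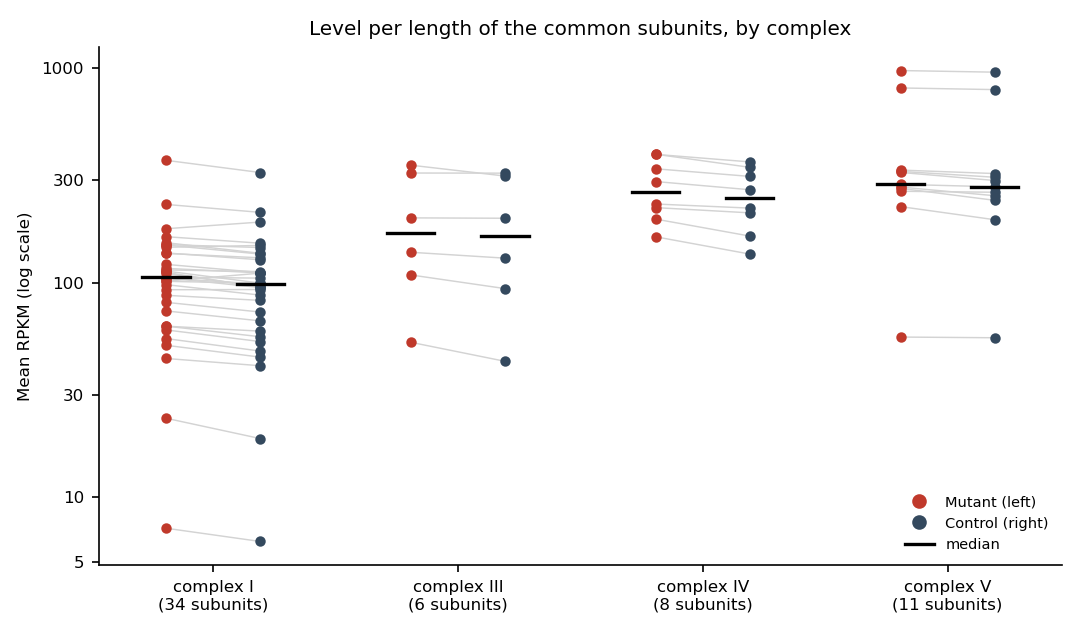
Mean level per length of each common subunit, in RPKM on a log scale, by complex, with Mutant points left of Control points, a grey line joining the same subunit and a black bar at the median. Most joining lines slope slightly down from Mutant to Control, and the medians run from 106 RPKM in Mutants and 98.9 RPKM in Controls in complex I to 287 RPKM in Mutants and 279 RPKM in Controls in complex V.

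In Mutants, 13 of the 59 common subunits were called higher (22.0%) and 0 lower, by edgeR's quasi-likelihood test with adjustment over all 10525 genes. At the same threshold 8.46% of all tested genes were called higher and 11.1% lower. No tested member was lower at an unadjusted p below 0.05 either (0 of 62). DESeq2 called 16 members higher and 0 lower, while over all genes it called 9.06% higher and 1367 of 10525 lower. The changes were small, with log2 fold changes of 0.15 to 0.31 among the called. The median over the 59 was 0.12, against 0.01 over all tested genes. Of the 59 fold changes 55 were positive, against 5512 of 10525 over all tested genes. Most ribosomal protein genes also had positive fold changes, as given below. In 17 of the 59 every Mutant library lay above every Control library, against 11.7% of all tested genes. In 0 of the 59 every Mutant library lay below, against 1391 of 10525 over all tested genes. Of the 17 paralogs 3 passed the filter on low counts, and 1 of these, COX7AL2, was called higher, which makes 14 members called of 62 tested.

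**Figure D2:**
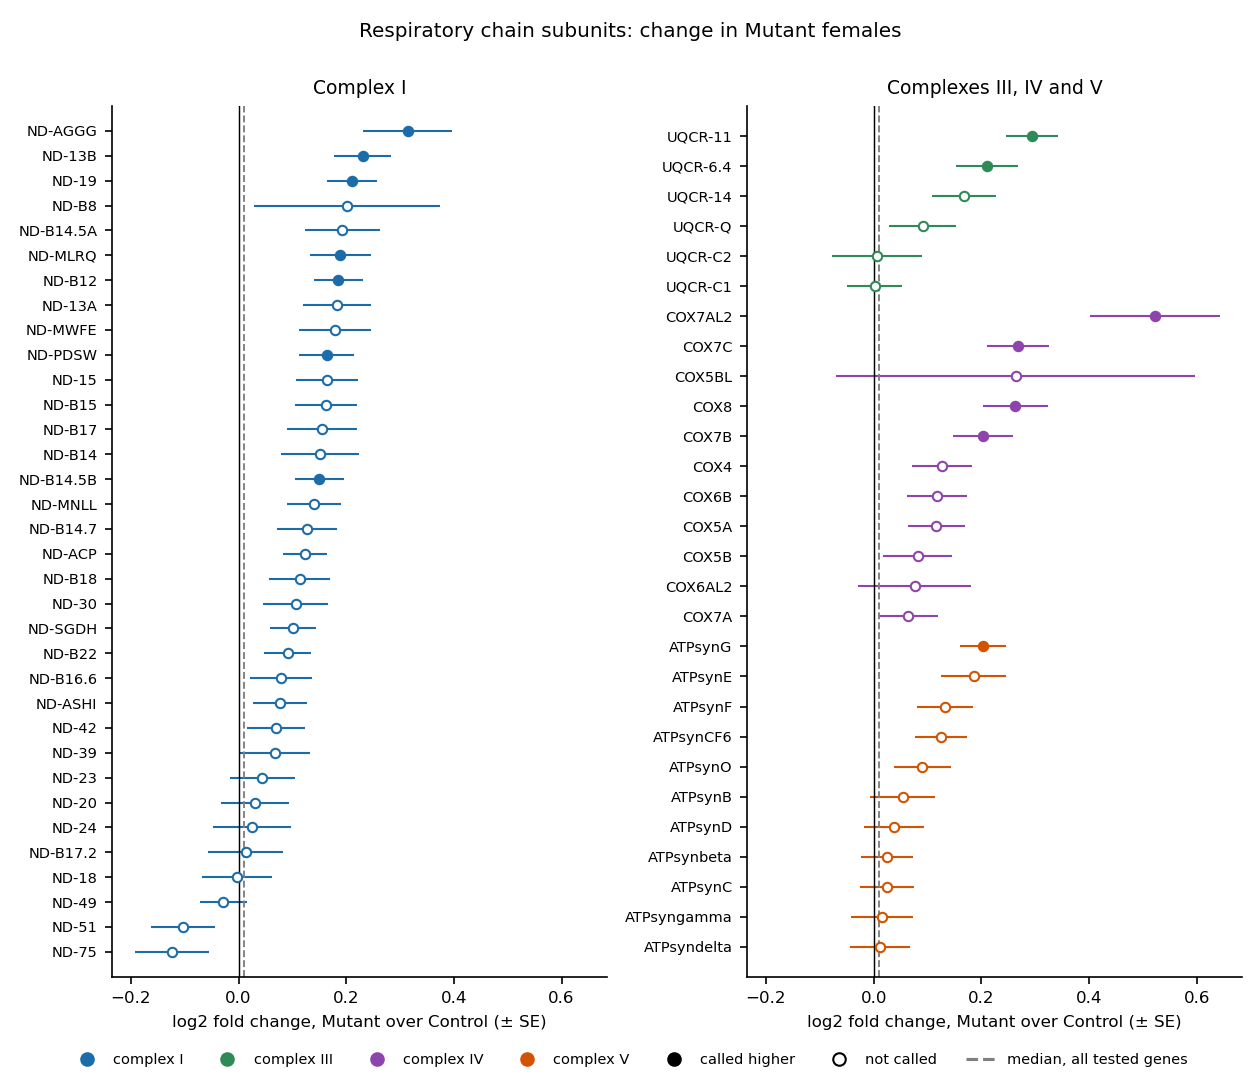
Log2 fold change (Mutant over Control) of the 62 tested members with its standard error, by complex, filled where the adjusted p is below 0.05. Called members lie between 0.15 and 0.52, most others lie right of the median of all tested genes at 0.01, and ND-75 and ND-51 lie farthest to the left.

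Complex I held 7 of the calls, all of them accessory subunits, so 7 of 27 accessory and 0 of 7 conserved core subunits were called. The 7 are 25.9% of the accessory subunits, against 8.46% of all tested genes called higher. ND-19, an accessory subunit facing the intermembrane space, had 80.9, 74.0, 78.0 and 77.0 CPM in Mutant libraries, against 69.4, 66.4, 68.9 and 63.1 CPM in Control libraries. All Mutants lay above all Controls, and the log2 fold change was 0.21 ± 0.05 (SE) with an adjusted p of 0.0109. ND-13B, an accessory subunit of the arm that reaches into the matrix, had 69.4, 64.5, 70.1 and 62.4 CPM in Mutants, against 57.8, 53.8, 56.0 and 59.5 CPM in Controls. Its groups did not overlap either, with a log2 fold change of 0.23 ± 0.05 (adjusted p = 0.0123.)

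ND-AGGG, a membrane arm subunit, was low but had the largest fold of the common subunits. It had 19.5, 16.9, 16.5 and 16.7 CPM in Mutants, against 14.7, 13.6, 15.0 and 12.7 CPM in Controls, a log2 fold change of 0.31 ± 0.08 with an adjusted p of 0.0232. Mutant replicate 1 was the highest, and without it the adjusted p was 0.0589, without Control replicate 2 it was 0.0541 and without Control replicate 4 it was 0.0587. ND-MLRQ, whose mammalian counterpart has been reassigned to complex IV, averaged 199.6 ± 14.8 CPM in Mutants and 175 ± 7.32 CPM in Controls (SD, n = 4 each), with an adjusted p of 0.0389. ND-B12 and ND-PDSW of the membrane arm averaged 68.6 ± 2.28 and 113 ± 5.56 CPM in Mutants, against 60.3 ± 2.28 and 101 ± 5.38 CPM in Controls, with adjusted p values of 0.0162 and 0.0451. In ND-PDSW the groups overlapped. ND-B14.5B, also of the membrane arm, averaged 61.7 ± 2.33 CPM in Mutants and 55.6 ± 1.90 CPM in Controls, with an adjusted p of 0.0417.

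The 7 core subunits of complex I had a median log2 fold change of 0.03, against 0.15 in the 27 accessory subunits, and this difference was not tested. Core genes have 819 to 2634 exonic bases and accessory genes 460 to 1618, and fold changes fell with length, as given below. With the length offset described there, the medians were -0.05 and 0.04, and 0 were called in either group. ND-75, the largest iron-sulphur subunit, had 285, 282, 253 and 250.2 CPM in Mutants, against 325, 267, 276 and 299 CPM in Controls. ND-51, which binds the flavin, had 284, 284, 284 and 281 CPM in Mutants, against 341, 285, 282 and 309.8 CPM in Controls. The groups overlapped in both, and their log2 fold changes of -0.12 and -0.10 did not pass the test (adjusted p = 0.231 and 0.243). ND-49, ND-24, ND-20, ND-23 and ND-30 ran from -0.03 to 0.11, and none of them passed. At an unadjusted p below 0.05 and with DESeq2 the count of core subunits was also 0 of 7.

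The uncalled accessory subunits ranged from separate groups to no difference in level. ND-ACP, the mitochondrial acyl carrier protein, had all Mutants above all Controls (195 ± 5.12 CPM in Mutants and 179 ± 5.56 CPM in Controls) and an adjusted p of 0.0548. ND-15, ND-B15 and ND-MNLL also had groups that did not overlap, with adjusted p values of 0.0720 to 0.0758. At the other end ND-18 had 71.2 ± 4.96 CPM in Mutants and 71.3 ± 5.48 CPM in Controls, and ND-B17.2 had 77.6 ± 5.73 CPM in Mutants and 76.9 ± 6.74 CPM in Controls.

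In complex III the small subunits UQCR-11 and UQCR-6.4 were higher, and the other 4 common subunits were not called. These 2 of 6 stand against 8.46% of all tested genes called higher. UQCR-11 had the smallest adjusted p of all members. It had 83.6, 83.9, 86.9 and 85.8 CPM in Mutants, against 66.1, 72.2, 73.9 and 65.3 CPM in Controls. The lowest Mutant exceeded the highest Control by more than the spread of the Mutants, with a log2 fold change of 0.29 ± 0.05 (adjusted p = 0.00253.) UQCR-6.4 had 64.0, 60.0, 62.7 and 56.9 CPM in Mutants, against 55.0, 50.1, 56.1 and 49.3 CPM in Controls. Its groups were close but separate (0.21 ± 0.06, adjusted p = 0.0274), and 40.5% of its exonic bases overlap POSH. UQCR-C1 and UQCR-C2, the large core proteins on the matrix side, averaged 528 ± 24.0 and 337 ± 26.6 CPM in Mutants, against 528 ± 26.9 and 336 ± 38.5 CPM in Controls. The uncalled UQCR-14 and UQCR-Q had log2 fold changes of 0.17 and 0.09 (adjusted p = 0.0735 and 0.333), and their groups overlapped.

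Complex IV had 3 common subunits called of 8, against 8.46% of all tested genes called higher. All 3 were short single-span proteins around the catalytic core. COX7C had 153, 138, 138 and 128 CPM in Mutants, against 122, 109, 119 and 113 CPM in Controls. All Mutants lay above all Controls (log2 fold change 0.27 ± 0.06, adjusted p = 0.00964), and 15.7% of its exonic bases overlap oys. COX8 had 112, 98.2, 103 and 91.9 CPM in Mutants, against 88.3, 81.6, 86.4 and 81.7 CPM in Controls (0.26 ± 0.06, adjusted p = 0.0126). COX7B averaged 165 ± 11.0 CPM in Mutants and 144 ± 7.33 CPM in Controls (adjusted p = 0.0285). The bulkier COX4, COX5A, COX5B and COX6B, and also COX7A, had log2 fold changes of 0.06 to 0.13 and adjusted p values of 0.140 to 0.460.

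In complex V only ATPsynG was called, of 11 common subunits. That is 9.09%, close to the 8.46% of all tested genes called higher. This membrane subunit, known in yeast for pairing ATP synthases into dimers, had 187, 179, 174 and 173 CPM in Mutants, against 162, 152, 152 and 153 CPM in Controls. The groups were separate, with a log2 fold change of 0.20 ± 0.04 (adjusted p = 0.00787). ATPsynE, another small membrane subunit, averaged 198 ± 14.1 CPM in Mutants and 174 ± 10.6 CPM in Controls without overlap, and its adjusted p was 0.0526. The abundant ATPsynC and ATPsynbeta had log2 fold changes of 0.03 each, and the stalk subunits ATPsyngamma, ATPsyndelta, ATPsynB and ATPsynD lay between 0.01 and 0.05, all uncalled. The stalk subunits ATPsynO and ATPsynCF6, at 0.09 and 0.13, were not called either (adjusted p = 0.255 and 0.0938). ATPsynF, at 0.13, was also uncalled (adjusted p = 0.0982).

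**Figure D3:**
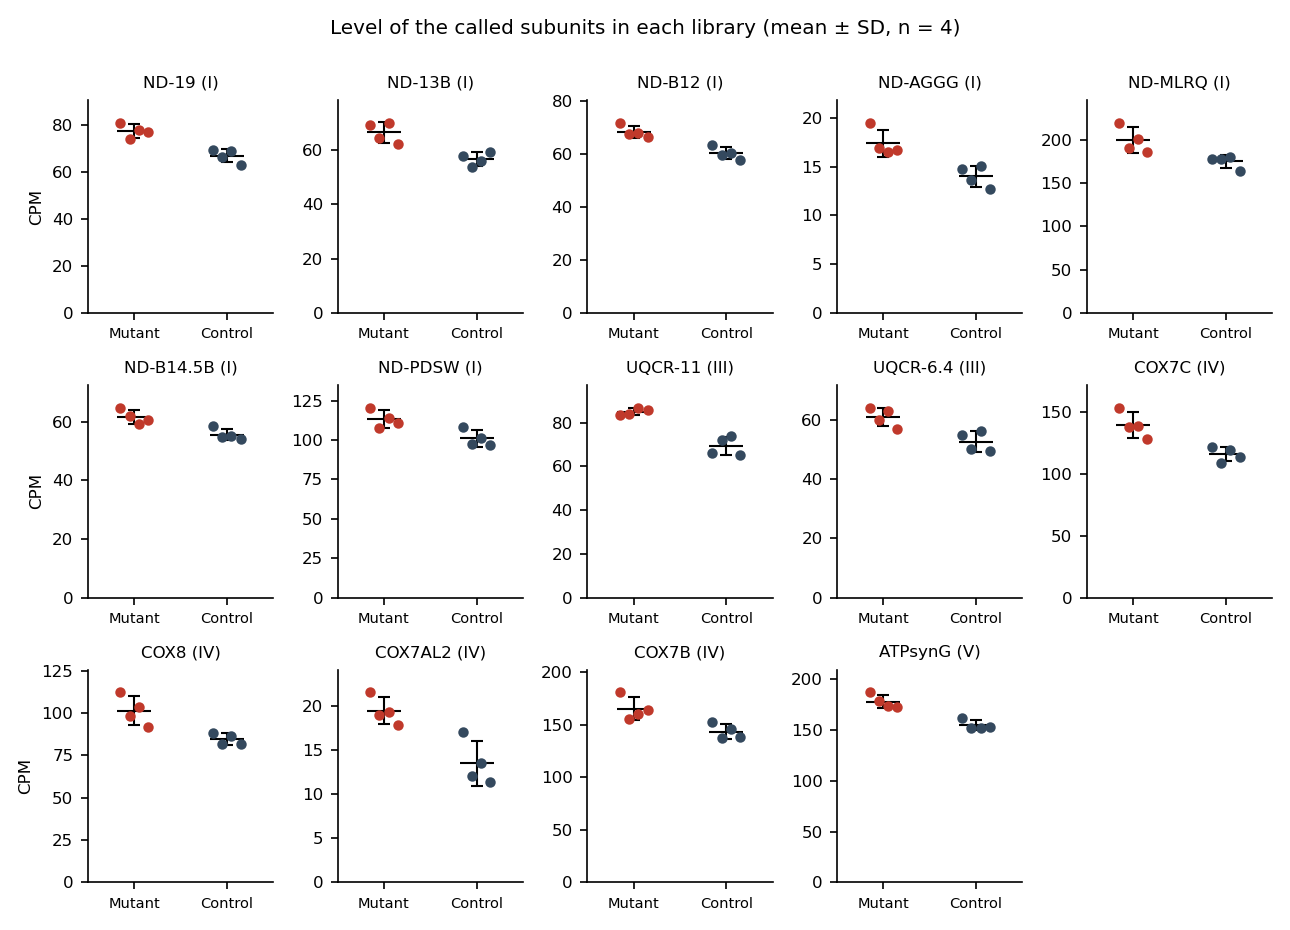
CPM in each library (points) of the 14 members called higher, Mutant left and Control right, with mean and SD (n = 4); every axis starts at 0. The groups are separate in 13 of the 14 panels, the exception being ND-PDSW, and COX7AL2 has the largest fold.

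Members moved together between libraries of one genotype. Mutant replicate 1 was the highest Mutant library in 52 of 59 common subunits, and Control replicate 1 was the highest Control library in 47, while Mutant replicate 4 and Control replicate 2 were the lowest of their genotypes in 39 and 36. The summed level of the 59 was therefore 12219.6 to 13555 CPM in Mutants and 11560.4 to 12861 CPM in Controls, and the groups overlapped. The sums averaged 1677 ± 91.1 CPM in Mutants and 1523 ± 81.1 CPM in Controls for complex IV, and 3736 ± 177 CPM in Mutants and 3566 ± 182 CPM in Controls for complex I (SD, n = 4 each). For complex III they were 1331 ± 63.4 CPM in Mutants and 1276 ± 81.2 CPM in Controls, and for complex V 5959.8 ± 265 CPM in Mutants and 5773 ± 230.3 CPM in Controls.

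Some calls depended on single libraries, and whether this came from the shared spread or from the smaller number of libraries was not tested. When any of the 8 libraries was left out, 8 of the 14 called members passed in every fit, namely ND-19, ND-13B, ND-B12, UQCR-11, COX7C, COX8, COX7AL2 and ATPsynG. The other 6 (ND-AGGG, ND-B14.5B, ND-MLRQ, ND-PDSW, UQCR-6.4 and COX7B) lost the call in 3 to 7 of these fits. The count of called members was 8 without Control replicate 2, without Control replicate 4 or without Mutant replicate 1, against 6.68%, 6.13% and 6.48% of all genes called higher in those fits, and it was 20 without Control replicate 1, against 7.19%. Without Mutant replicate 2, the library with male transcripts, 14 were called, 13 of them shared with the full fit, against 6.8% of all genes called higher in that fit.

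Transcript length moved with the result. The common subunits are short, with a median of 842 exonic bases against 2115 over all tested genes. Over all tested genes the median log2 fold change was 0.11 in genes of up to 750 bases and -0.08 in genes above 3000 bases, and 16.7% and 3.77% of these were called higher. Among common subunits of up to 750 bases the median was 0.17 and 9 of 21 were called higher. Among those of 750 to 1000 bases it was 0.12 with 3 of 19 called, against 0.09 and 13.75% over all genes of that length. Among the 19 longer ones only UQCR-11 was called. Over all tested genes, 11.1% of those of 1000 to 1500 bases and 10.6% of those of 1500 to 2000 bases were called higher. Across the 59 subunits the Spearman correlation of fold change with length was -0.64, and across all tested genes it was -0.36. The correlation of fold change with mean CPM across the 59 was -0.58, and length and level were not separated. These are descriptions over genes, which share the libraries and are not independent replicates.

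The trend with length over all genes was then taken out of each library by an offset. With it the median of the common subunits was 0.02, against 0.00 over all genes. Of the 59 fold changes 41 were positive, against 5188 of 10409 over all genes. Called higher were then UQCR-11 (0.25, adjusted p = 0.00806), COX7C (0.17, adjusted p = 0.0320) and the paralog COX7AL2 (0.43, adjusted p = 0.0291), while 7.39% of all genes were called higher and 7.3% lower. The 7 called subunits of complex I all lost their call in that fit. UQCR-11, with 1613 exonic bases, was the one member that also passed when Mutant replicate 2 was left out in addition (0.25, adjusted p = 0.0203), a fit that called 5.71% of all genes higher. The offset removes the length trend over all tested genes, whatever its source. Across the 59 subunits the Spearman correlation of fold change with length was still -0.36 with the offset. What set the trend was not tested.

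**Figure D4:**
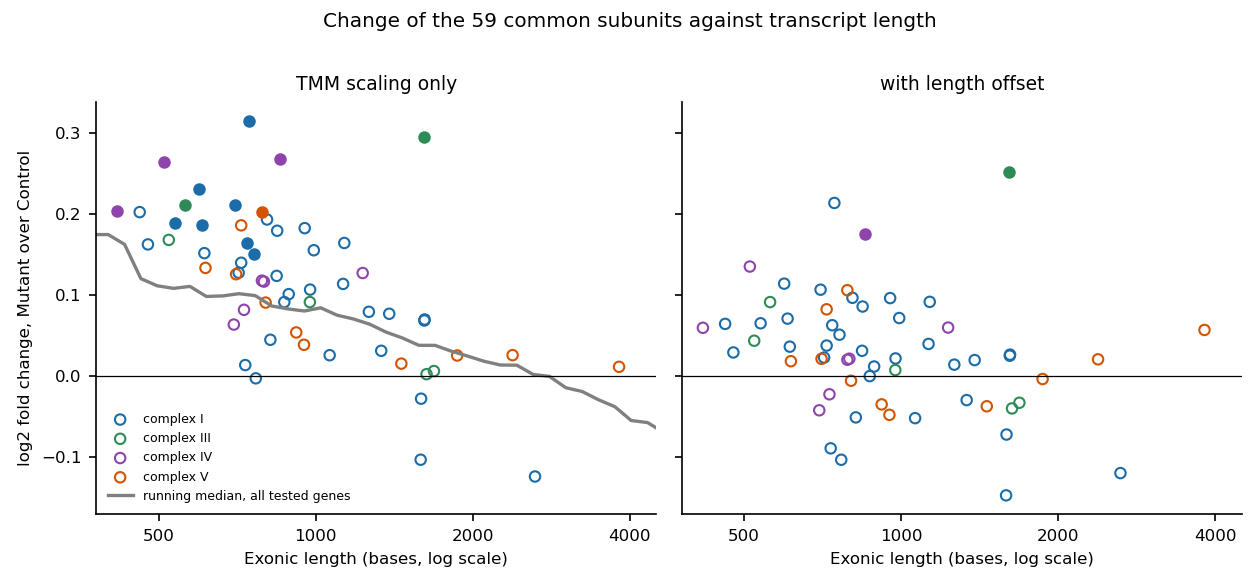
Log2 fold change (Mutant over Control) of the 59 common subunits against exonic length on a log scale, without (left) and with (right) the length offset, filled where called; the grey line is the running median of all tested genes. Short subunits sit highest on the left, where the grey line also falls with length, and on the right UQCR-11 and COX7C are the filled points.

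The scale also mattered for the count. With upper quartile scaling in place of TMM, 31 members were called higher and 0 lower, against 14.2% of all genes called higher and 8.29% lower, and the 31 included all 14. No called member changed direction, while the uncalled ND-18 and ND-49 turned from negative to positive (0.04 and 0.02). That scaling moved the median of all genes to 0.06, and the median of the tested members to 0.17.

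By chromosome arm, 6 of 13 common subunits on 3L, 4 of 9 on 2R and 3 of 12 on 2L were called higher. None was called of 12 on the X, 11 on 3R and 2 on chromosome 4. At an unadjusted p below 0.05 the X had 3 and 3R had 2, and DESeq2 called 0 on the X and 1 on 3R. Over all tested genes 9.34% were called higher on 3L, 9.20% on 2R, 7.94% on 2L, 6.83% on the X, 8.39% on 3R and 15.2% on chromosome 4. With the length offset the median log2 fold change of the common subunits was 0.07 on 2R, 0.06 on 2L, 0.03 on 3L, 0.02 on the X and -0.01 on 3R. No test was made between arms.

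The paralogs fell into separate kinds. Below the filter on low counts were 14 of the 17, and these are read from counts. Mutant replicate 2 had 386 counts of them in all, and the other Mutants had 24, 25 and 27, against 20 to 30 in Controls. COX4L had 78 counts in Mutant replicate 2 and 4 to 9 in each of the other 7 libraries, which is 10.8 times the CPM over those libraries. COX7AL had 47 counts there and 0 to 7 elsewhere, COX6CL had 37 and 0 or 1, COX6AL had 32 and 1 to 7, and ND-49L had 31 and 0 to 4.

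The remaining paralogs followed the same order. ND-20L, ND-B14.5AL and ATPsynGL had 15, 17 and 15 counts in Mutant replicate 2 and 0 in all other libraries, where 0 allows up to 0.0916 to 0.155 CPM per library (3 counts). ATPsynbetaL and UQCR-11L had 21 counts each, ND-24L and ND-51L2 20 each, ND-51L1 17 and ATPsynCF6L 15 in that library, and no other library exceeded 10 in any of these. COX4L, the one with the most counts there, made up 0.810% of the reads of COX4 and COX4L in Mutant replicate 2 (exact 95% interval 0.641% to 1.01%, counting error only) and 0.0751% in the other libraries. They were high in the library in which the male germline markers given above were high, and a separate contribution of the genotype cannot be read from 1 library.

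**Figure D5:**
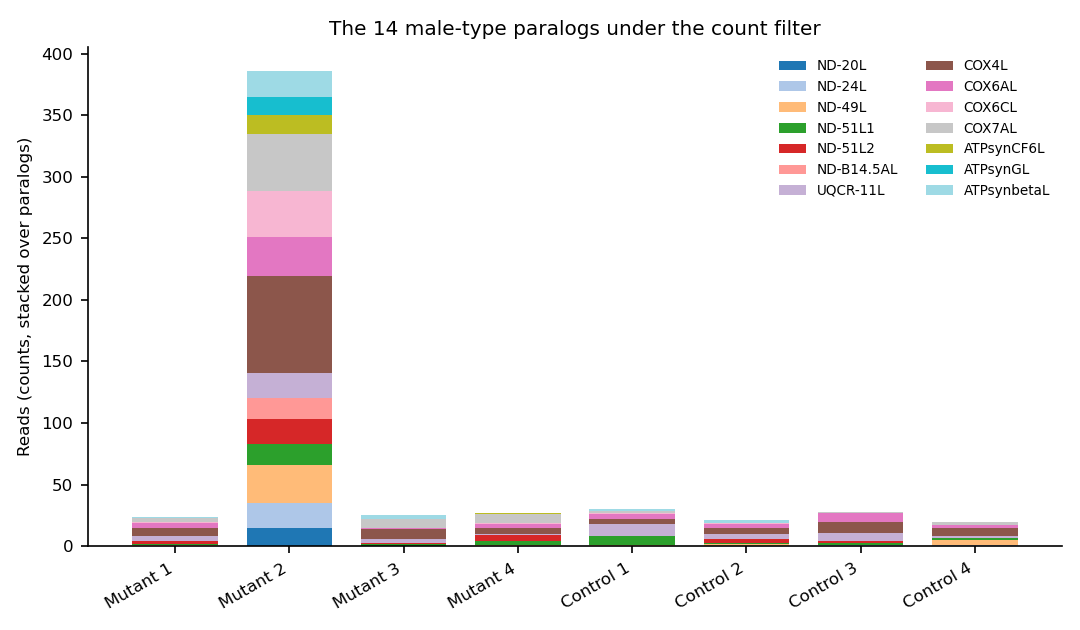
Reads per library of the 14 paralogs below the count filter, stacked, with the 4 Mutant libraries left of the 4 Control libraries. Mutant replicate 2 holds 386 reads, from every one of the 14 genes, and each other library holds 20 to 30.

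COX5BL passed the filter at about 1 CPM, and its change turned with 1 library. It had 0.855, 2.31, 0.948 and 0.865 CPM in Mutants, against 1.04, 1.04, 0.929 and 1.14 CPM in Controls. Mutant replicate 2 alone was high, and the log2 fold change of 0.26 ± 0.33 (adjusted p = 0.618) was -0.22 without it (adjusted p = 0.517). All of its exonic bases overlap Trmt6. COX6AL2 had 9.06 ± 1.24 CPM in Mutants and 8.61 ± 0.200 CPM in Controls (adjusted p = 0.649), but its row repeats that of Ir75d count for count, so the level cannot be given to either gene.

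COX7AL2 was the only one of the 17 paralogs called. It had 21.6, 19.0, 19.4 and 17.9 CPM in Mutants, against 17.1, 12.1, 13.5 and 11.4 CPM in Controls. All Mutants lay above all Controls and Mutant replicate 2 was not the highest, and the log2 fold change of 0.52 ± 0.12 was the largest of all tested members (adjusted p = 0.0131, and 0.0234 without Mutant replicate 2). Its partner COX7A averaged 162 ± 11.4 CPM in Mutants and 155 ± 7.13 CPM in Controls (adjusted p = 0.460). Of the pair's reads, COX7AL2 took 10.8%, 11.1%, 10.8% and 10.3% in Mutants, against 9.47%, 7.55%, 7.89% and 7.01% in Controls.

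Other parts of the chain, which carry other symbols, were not called with few exceptions. Of the 9 tested genes of the mitochondrial genome, which encode subunits of complexes I, III, IV and V, 0 were called by edgeR with TMM. All had positive log2 fold changes of 0.08 to 0.19. Of these, 5 had an unadjusted p below 0.05, and DESeq2 called 2. With upper quartile scaling edgeR called 4 of them higher, against 14.2% of all genes. Of complex II, which feeds electrons from succinate, 0 of 4 tested subunits were called (also 0 unadjusted and 0 by DESeq2), with SdhA at -0.10 and SdhC at 0.16. The complex III subunits Cyt-c1, RFeSP and ox and the electron carrier Cyt-c-p were not called (adjusted p = 0.0824 to 0.520). Of the ATP synthase subunits under other names, sun, the small epsilon subunit of the stalk, was called higher with 109 ± 6.04 CPM in Mutants and 96.5 ± 4.19 CPM in Controls (0.17 ± 0.05, adjusted p = 0.0362). The call was lost with the length offset (0.03, adjusted p = 0.558) and without Control replicate 1, 2 or 4 or Mutant replicate 1 or 3 (adjusted p = 0.0585 to 0.0953). The catalytic partner blw averaged 1607 ± 104 CPM in Mutants and 1733 ± 103 CPM in Controls (adjusted p = 0.233). Of 9 tested assembly factors edgeR and DESeq2 called 0, and 2 had an unadjusted p below 0.05.

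Pathways that feed the chain gave some calls in the other direction. Of 13 genes of pyruvate dehydrogenase and the citric acid cycle, 0 were called higher and 3 lower, against 11.1% of all tested genes called lower. The citrate synthase gene kdn had 339, 301, 316 and 304 CPM in Mutants, against 394, 355, 397 and 372 CPM in Controls. All Mutants lay below all Controls (-0.27 ± 0.05, adjusted p = 0.00616, and 0.0103 with the length offset). The aconitase mAcon1 and the isocitrate dehydrogenase subunit Idh3a also fell, by 0.20 and 0.16 on the log2 scale, with adjusted p values of 0.0396 and 0.0473, and without Mutant replicate 2 these were 0.0534 and 0.106. With upper quartile scaling kdn alone was called lower, mAcon1 and Idh3a had adjusted p values of 0.0813 and 0.122, and 9 of the 13 fold changes were positive, against 3 with TMM. The calls of mAcon1 and Idh3a were each also lost without some other single libraries (adjusted p up to 0.102 and 0.115). Mpcp2, the mitochondrial phosphate carrier, averaged 694 ± 34.5 CPM in Mutants and 818 ± 55.5 CPM in Controls (adjusted p = 0.0166), and it was the 1 call among 6 genes of adenine nucleotide, phosphate and porin channels.

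Of 10 genes of coenzyme Q synthesis, Coq8 and qless were called higher (0.23 and 0.18, adjusted p = 0.0339 and 0.0402) and 0 lower. These 2 of 10 stand against 8.46% of all tested genes called higher. Without Mutant replicate 2 qless lost its call (adjusted p = 0.0757) and Coq8 kept it (0.0406), and both lost it without some other single libraries (adjusted p up to 0.122 and 0.0870). PolrMT, the mitochondrial RNA polymerase, and Pink1, a kinase of mitochondrial quality control, were lower (-0.15 and -0.20, adjusted p = 0.0240 and 0.00888). Each was the 1 call in its list of 7 and 8 genes, while 11.1% of all tested genes were called lower. Pink1 passed in every alternative run, but PolrMT did not with the length offset (-0.07, adjusted p = 0.226), with upper quartile scaling (adjusted p = 0.0830) or without Control replicate 2 or 4 or Mutant replicate 1, 3 or 4 (adjusted p = 0.0508 to 0.0627). Neither of 2 tested uncoupling protein genes was called, by edgeR or DESeq2 or at an unadjusted p below 0.05. Of 71 mitochondrial ribosomal proteins, 5 were called higher and 0 lower, among them mRpS21 (0.43), mRpL14 (0.27) and mRpS23 (0.24), and the median was 0.06. The 5 are 7.04% of the list, against 8.46% of all tested genes called higher. Of 86 tested cytosolic ribosomal proteins, RpS12 and RpL29 were called higher (2.33%) and 0 lower, with a median of 0.07. Fold changes were positive in 63 of the 71 mitochondrial and 74 of the 86 cytosolic ribosomal proteins. With the length offset 1 mitochondrial and 0 cytosolic ribosomal proteins were called, and the medians were -0.03 and -0.01. In that fit 24 of the 71 and 34 of the 86 fold changes were positive.

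Marker lists of large tissues of the female body are set against 8.46% of all tested genes called higher and 11.1% lower. Of 15 flight muscle markers 5 were called higher and 3 lower, with a summed level of 2852 to 3129 CPM in Mutants and 2737 to 3234 CPM in Controls, and none of them was at 0 in any library. Of 17 female germline markers 1 was called higher and 3 lower, and their sum was 5333 to 5833 CPM in Mutants and 5934 to 6853 CPM in Controls. The sums of 11 midgut enterocyte markers were 2762 to 3827 CPM in Mutants and 4763 to 8315 CPM in Controls, with 1 called higher and 4 lower. Of 8 tested fat body markers 0 were called higher and 2 lower, and the sums of the 9 in the table were 24567 to 30236 CPM in Mutants and 24422 to 36941 CPM in Controls. The sums of germline and midgut markers did not overlap between genotypes, but single markers went both ways. Of the log2 fold changes, 8 were positive and 9 negative in the germline list, and 5 positive and 6 negative in the midgut list. The part of these markers in the levels of the respiratory chain subunits was not tested.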

How the data were processed

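The authors deposited 1 table of whole-number read counts per gene for 8 libraries, not normalized, since totals differ between libraries. The submitters' processing notes name the build dm3 and the tool DESeq, while aligner, annotation and strand handling were not given in the sources used here. CG numbers were matched to symbols through RefSeq's Release 6 table (11482 by current tag and 456 by synonym of 12083 rows). The row CG00000, which names no gene (0.0154% to 0.0176% of counts), was left out.

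Counts were filtered with filterByExpr (minimum count 10), scaled with TMM and tested with edgeR 4.0.16's robust quasi-likelihood test in R 4.3.3, two-sided, without covariates, with Benjamini-Hochberg adjustment over 10525 genes and a threshold of 0.05. Each SE was derived as |log2 fold change| over the root of F. Exonic lengths came from current Ensembl gene models, so RPKM and overlaps rest on another build than the counts. The length offset is a lowess fit (span 0.3) of each library's log2 CPM deviations on log10 length. DESeq2 1.42.0, RLE, upper quartile scaling, no filter, total counts, the replicate block and leaving out each library were alternatives. Scripts were tested on simulated data. There 42% of planted 1.25-fold changes and 78% of planted 1.5-fold changes were called, and 16 of 165 calls were false. An uncalled gene is therefore not shown to be unchanged. With 4 against 4 libraries an exact permutation test cannot go below 0.0286, the value Hr78 had. Libraries of 1 genotype differed by more than counting noise (chi-square per degree of freedom 10.4 to 36.3). The labels call the 4 pools of a genotype biological replicates.

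The members and the 20 pathway and marker lists were chosen with earlier results of these data known. Named genes are Hr78, all paralogs, up to 10 called members per complex and direction, the 2 highest by RPKM and the largest uncalled change per complex, and up to 3 called genes per pathway list. Other members and marker counts were named after their values were seen. No sequences are printed.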

Additional observations from a re-analysis of the deposited data

Results flagged for a closer look

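Single libraries far from the other 3 of their genotype were found in 24 of 184 groups of 4 examined, and chance flags about 1 in 20 groups. Of these, 14 were paralogs that were high in Mutant replicate 2. They had 2.86 CPM (COX4L), 2.31 CPM (COX5BL), 1.72 CPM (COX7AL), 1.36 CPM (COX6CL), 1.17 CPM (COX6AL) and 1.14 CPM (ND-49L) there. UQCR-11L and ATPsynbetaL had 0.770 CPM each, ND-24L 0.733 CPM, ND-B14.5AL and ND-51L1 0.623 CPM each, and ND-20L, ATPsynGL and ATPsynCF6L 0.550 CPM each. The other 3 Mutants had at most 0.130 CPM of each, except COX4L (up to 0.316 CPM), COX7AL (up to 0.303 CPM) and COX5BL (up to 0.948 CPM).

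Mutant replicate 1 was far above the other Mutants in 6 common subunits, with 241 CPM of ND-49, 425 CPM of ATPsyngamma, 1937 CPM of ATPsynC, 341 CPM of ATPsynB, 76.3 CPM of ND-15 and 19.5 CPM of ND-AGGG. Mutant replicate 4 was below the others in ND-51, at 281 CPM against 284 CPM. Control replicate 1 was above the other Controls in ND-13A (47.8 CPM) and ATPsynG (162 CPM), and Control replicate 4 was below them in ND-MLRQ (164 CPM).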

How the results depend on the processing

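Hr78 and the absence of members called lower held in all 15 alternatives run. Called members numbered 14 in the analysis reported, 31 with upper quartile scaling, 3 with the length offset, 1 with the offset and Mutant replicate 2 left out (an alternative added after the data were seen) and 8 to 20 when 1 library was left out. In the order complex I, III, IV and V the reported counts were 7, 2, 4 and 1. They were 18, 3, 6 and 4 with upper quartile scaling, 0, 1, 2 and 0 with the offset, and 0, 1, 0 and 0 with the added alternative, in which 0 paralogs passed, and DESeq2 gave 2 in complex V. Leaving out 1 library gave 3 to 10 in complex I, 1 to 3 in complex III, 3 to 5 in complex IV and 1 to 2 in complex V. The median over members was 0.028 both with the offset and with the added alternative, against 0.12. Over all genes, 1499 were called higher with upper quartile scaling, and 760 and 566 were called lower with the offset and with the added alternative.

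With the replicate number as a block, 27 members were called higher, 14 of them in complex I and 4 in complex V. Same-numbered libraries correlated by 0.21, -0.05, -0.10 and 0.04, and only 1 of 4 Mutant libraries correlated best with its own number. Correlations this weak cannot decide whether the numbers mark a shared day or batch, which was not tested.

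Directions turned only in uncalled genes. Of the 59 common subunits, 4 had negative fold changes in the analysis reported, 18 with the offset and 14 without Mutant replicate 1. The values that follow are for some of the genes that turned. UQCR-C1 was -0.00144 with RLE, -0.00143 with DESeq2, -0.040 with the offset, -0.032 with the added alternative and -0.027 to 0.034 without 1 library. COX5BL was -0.34 and ND-B8 -0.029 with the added alternative, and COX5BL was -0.22 to 0.42 without 1 library. ATPsynC was -0.00389 with the offset and -0.0075 to 0.043 without 1 library. The cause was not tested. Depth limits the paralogs, since 3 counts correspond to 0.0916 to 0.155 CPM.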
